A study of Mus musculus with 12 samples.

Results

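The comparison described here is of ribosome footprints in KPC cells after 21 h of cisplatin (Cis) against 6 h. It is made between 4 of the series' 12 libraries, the 2 ribosome-profiling libraries of each time. It covers the 10390 transcripts that carried enough footprints to be tested, of 15803 with a read in any library. KPC cells are 1 mouse pancreatic ductal adenocarcinoma (PDAC) line, made from mice with a Trp53 allele (LSL-R172H) that Pdx1-Cre switches on in the pancreas. Every group, the untreated one included, therefore carries mutant Trp53. The groups were cells without treatment, Cis for 6 h and Cis for 21 h, with 2 footprint and 2 RNA-seq libraries each. The methods give 20 μM Cis, and give PBS in place of the drug for the untreated cells, for a time that the labels do not give. The 2 untreated footprint libraries are used below to tell whether a change seen between 6 and 21 h carried an early change further, turned it back or started after 6 h. They also enter the filter and the shared estimate of spread, and so the SEs and p-values of the comparison. No untreated group is labelled as matched to either time, so longer exposure to Cis and longer time in culture cannot be told apart here.

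In ribosome profiling, RNase I digests mRNA that is not covered by a ribosome, and the protected fragments, here of about 25 to 35 nucleotides, are sequenced and counted over each coding sequence. A footprint level therefore moves both with the amount of an mRNA and with how many ribosomes sit on it, and RNA-seq from the same design gives the first of these. Cisplatin crosslinks bases in DNA and so obstructs replication and transcription. Cells that meet such damage are known to induce short-lived immediate early transcription factors, the integrated stress response (ISR), in which phosphorylated eIF2α lowers general initiation while Atf4 and Ddit3 are translated, and checkpoints that hold back S phase, the only phase in which replication-dependent histones are made in bulk.

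Footprint libraries held 3375480 to 5204127 reads over coding sequences and RNA-seq libraries 1985344 to 2901692. Values are RPKM (reads per kilobase of coding sequence, scaled to the depth of the library), as deposited, and fold changes are log2 of scaled RPKM plus 0.5, which understates the change of weakly expressed genes. All values are relative to the other transcripts of a library, and absolute amounts were not measured. The paper reports lower protein synthesis under Cis by puromycin incorporation. Differences were tested with limma across all transcripts, two-sided, and are given as the log2 fold change ± SE with the Benjamini-Hochberg adjusted p. A gene is said to rise or fall where that p is under 0.05. Across transcripts, replicate log2 footprint values correlated with Pearson's r of 0.985 to 0.989. Nothing in the labels says that the 2 replicates of a group came from separate cultures, so p-values measure only the spread between these libraries, which may be technical. Of 11 epithelial markers, 7 reached 1 RPKM in every footprint library, led by keratins: Krt8 stood at 4949 and 4876 RPKM at 6 h and 3214 and 3261 at 21 h, and Epcam, Cldn4 and Muc1 did not pass 1.83 RPKM in any library. The summed level of the epithelial markers was 9518 to 9587 RPKM at 6 h and 6953 to 7128 at 21 h, and its part in the results below was not tested. Markers of fibroblasts summed to at most 9.72 RPKM, those of endothelium to at most 0.666, those of acinar and islet cells to 0, and those of leukocytes to at most 96.4, nearly all from Cd14. In bulk samples such as these, fewer cells of a kind and less RNA per cell cannot be told apart.

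Between 6 and 21 h, 1554 transcripts rose (15% of those tested) and 1634 fell (15.7%), 30.7% in all. Both 21 h libraries lay above both 6 h libraries for 3449 transcripts (33.2%) and below both for 3489 (33.6%), beside the called shares of 15% and 15.7%. Separation of 2 libraries from 2 has a two-sided exact permutation p of 0.333, so it is frequent even with no change. Far fewer transcripts were called by 6 h: 212, or 2.04%, differed from untreated cells, against 39.1% at 21 h. At an unadjusted limma p under 0.05, 2217 differed from untreated to 6 h and 4394 from 6 to 21 h. Crossing the calls, 36 transcripts that were higher at 6 h went on rising and 45 that were lower went on falling. A further 62 reversed, 33 from higher to lower and 29 from lower to higher, and 69 held the early change with no call from 6 to 21 h, 40 higher and 29 lower. The remaining called transcripts began late, with no call at 6 h: 1489 rose, of which 974 were within 0.25 of untreated at 6 h on the log2 scale, and 1556 fell, of which 836 were. This class can hold transcripts that had already moved by 6 h, such as Mpp7 (-1.04, limma adjusted p = 0.0515).

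The 6 h libraries enter both intervals, so an error in them moves a transcript towards reversal, and the class counts are a description with no test of overlap. They rest on the 212 early calls, which depended on the libraries and the model. Without 6 h replicate 1 there were 6 early calls and without 6 h replicate 2 there were 0, beside 1493 and 1402 transcripts at an unadjusted p under 0.05. Leaving out untreated replicate 1 or 2 gave 17 or 30, limma without its trend gave 0 beside 2001 at an unadjusted p under 0.05, and limma-voom on the recovered reads gave 1276. The late comparison depended less on these choices, with 846 higher and 918 lower calls without 6 h replicate 1 and 757 and 848 without replicate 2.

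Transcripts that rose early and went on were led by Ddit3, Atf3, Dusp1, Fos and Jun. All are genes of rapid stress and growth-factor responses. Ddit3, the ISR factor also known as CHOP, stood at 11.8 and 11.1 RPKM untreated, 18.2 and 20 at 6 h and 153 and 140.3 at 21 h (2.89 ± 0.12, adjusted p = 8.77e-06). The 6 h libraries lay above the untreated ones and far below those of 21 h, with no overlap. No overlap between 6 and 21 h was part of the rule that named these genes, here and below, so it is no added support. Atf3, a transcription factor induced by many stresses, stood at 19.5 and 19.4 RPKM untreated, 41.6 and 37.1 at 6 h and 243 and 269 at 21 h (2.67 ± 0.11, adjusted p = 8.77e-06). Dusp1, the phosphatase that shuts off MAP kinases, stood at 38.9 and 45.6 RPKM untreated, 92.9 and 85 at 6 h and 431 and 449 at 21 h (2.28 ± 0.11, adjusted p = 1.91e-05). Fos and Jun, which together form AP-1, rose by 1.92 and 1.84 after early changes of 1.31 and 0.65. For all 5 the larger share of the change on the log2 scale came after 6 h. The place of Dusp1 in this class held in 16 of 19 alternatives, that of Atf3 in 14, Fos in 13, Jun in 11 and Ddit3 in 10, whereas the rise from 6 to 21 h was called for all 5 under all 16 alternatives run for single genes.

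The promoters of 3 of these 5 genes, and of the ISR phosphatase subunit Ppp1r15a, were picked for show because they hold letters of AP-1, CRE or C/EBP-ATF elements, which are not in the windows of Fos and Jun. Each is the 250 bases before the annotated start in RefSeq, GRCm38.p6, written 5′ to 3′ on the gene's strand. Capitals mark an AP-1 element (TGACTCA) for Ddit3, a C/EBP-ATF element (TGATGCAA on the opposite strand) for Atf3 and a cyclic AMP response element (CRE, TGACGTCA) for Dusp1 and Ppp1r15a.
Ddit3 (chr10:127290543-127290792, plus strand): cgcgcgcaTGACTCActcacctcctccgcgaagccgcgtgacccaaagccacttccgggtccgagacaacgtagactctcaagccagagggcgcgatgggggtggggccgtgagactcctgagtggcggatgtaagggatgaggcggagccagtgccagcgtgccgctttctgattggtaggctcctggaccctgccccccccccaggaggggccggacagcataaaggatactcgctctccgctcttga
Atf3 (chr1:191183334-191183583, minus strand): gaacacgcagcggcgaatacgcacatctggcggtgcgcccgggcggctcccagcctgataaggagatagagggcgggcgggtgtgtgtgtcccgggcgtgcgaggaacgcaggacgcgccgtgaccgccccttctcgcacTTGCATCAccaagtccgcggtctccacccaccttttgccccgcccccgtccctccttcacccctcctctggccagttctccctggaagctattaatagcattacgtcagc
Dusp1 (chr17:26508473-26508722, minus strand): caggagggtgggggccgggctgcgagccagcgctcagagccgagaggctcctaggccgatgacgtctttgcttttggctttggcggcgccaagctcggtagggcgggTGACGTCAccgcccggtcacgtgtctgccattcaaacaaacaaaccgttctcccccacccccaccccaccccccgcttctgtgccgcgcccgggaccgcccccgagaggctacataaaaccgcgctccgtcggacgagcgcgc
Ppp1r15a (chr7:45526269-45526518, minus strand): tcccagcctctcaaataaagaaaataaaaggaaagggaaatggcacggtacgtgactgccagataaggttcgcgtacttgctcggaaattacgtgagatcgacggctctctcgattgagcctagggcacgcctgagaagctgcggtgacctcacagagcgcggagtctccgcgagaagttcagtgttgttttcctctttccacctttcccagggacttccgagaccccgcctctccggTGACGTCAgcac
The AP-1 letters begin 242 bases before the start of Ddit3 and the C/EBP-ATF letters 110 bases before that of Atf3. The CRE begins 143 bases before the start of Dusp1 and 12 bases before that of Ppp1r15a. Windows from 250 bases before to 50 after the start were searched on both strands for these letters and for an E2F site (TTTGGCGC), a heat shock element (GAANNTTC) and the boxes spelled out with the histone promoters, and no motif in the list contains another. C/EBP-ATF was found in 7 of 30 ISR targets (23.3%) against 0.679% of the 8395 tested genes with a promoter in the table, of which 4.68% held AP-1. In the whole class that went on higher, AP-1 was found in 3 of 31 (9.68%), beside 3 of 37 (8.11%) in the class that went on lower. A CRE was found in 67 of 1198 genes that began late and rose (5.59%) against 3.63% of those tested. These matches describe letters and not bound sites.

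Of 32 ISR targets tested, 16 rose and 1 fell, with a median log2 fold change of 0.43, beside -0.0038 over all transcripts. The fall, in the cystine transporter Slc7a11, was lost in some alternatives. The paper describes the eIF2α kinase PERK and the phosphorylation of eIF2α as largely intact after chemotherapy. That phosphorylation was not measured in these libraries. Ppp1r15a, the subunit that directs dephosphorylation of eIF2α, stood at 4.65 and 4.81 RPKM at 6 h and 26.7 and 26 at 21 h, beside 2.63 and 3.27 untreated (2.34 ± 0.19, adjusted p = 0.000143). Atf4, the factor that drives the programme and was picked after its values were seen, was flat at 6 h (0.12) and rose by 1.82 ± 0.11 in footprints, from 96.1 and 98.2 RPKM to 373 and 325, with 0.59 in RNA-seq (limma adjusted p = 0.0057). Chac1, which breaks down glutathione, and the pseudokinase Trib3, also picked after their values were seen, rose by 1.24 and 0.93, whereas the asparagine synthetase Asns stood at 0.15 with no call. In RNA-seq, 7 of 31 ISR targets rose and 0 fell, with 4 to 12 rises over the alternatives.

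Of 23 immediate early transcription factors tested, 17 rose, 0 fell and the median was 1.09. Without 6 h replicate 2, 13 rose. Of the 23, 5 had already risen by 6 h. Egr1, the zinc finger factor that growth factors and stress induce within minutes, had not: it stood at 8.89 and 15 RPKM untreated, 10.4 and 11.1 at 6 h and 85.7 and 79.5 at 21 h (2.86 ± 0.22, adjusted p = 0.000121). The 6 h libraries lay within the untreated range and both 21 h libraries stood apart. Fosb, a partner of Jun, was likewise called after 6 h and not before, with 1.89 and 1.17 RPKM at 6 h and 11.2 and 7.06 at 21 h, beside 1.14 and 1.9 untreated (2.22 ± 0.34, adjusted p = 0.00238). Egr3, picked after its values were seen, had 2 and 0 reads in the 6 h libraries and 18 and 6 at 21 h. Pooled, 2 reads against 24 gave a ratio of 13.5-fold (95% counting interval 3.35 to 118). That interval covers counting error only. Srf, Myc, Fosl1, Fosl2, Jund and Klf2 of the same list were not called. Of 14 MAPK phosphatases and Sprouty inhibitors, which damp the pathway that induces these factors, 6 rose, among them Spry4 (1.47), and 1 fell.

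**Figure D1:**
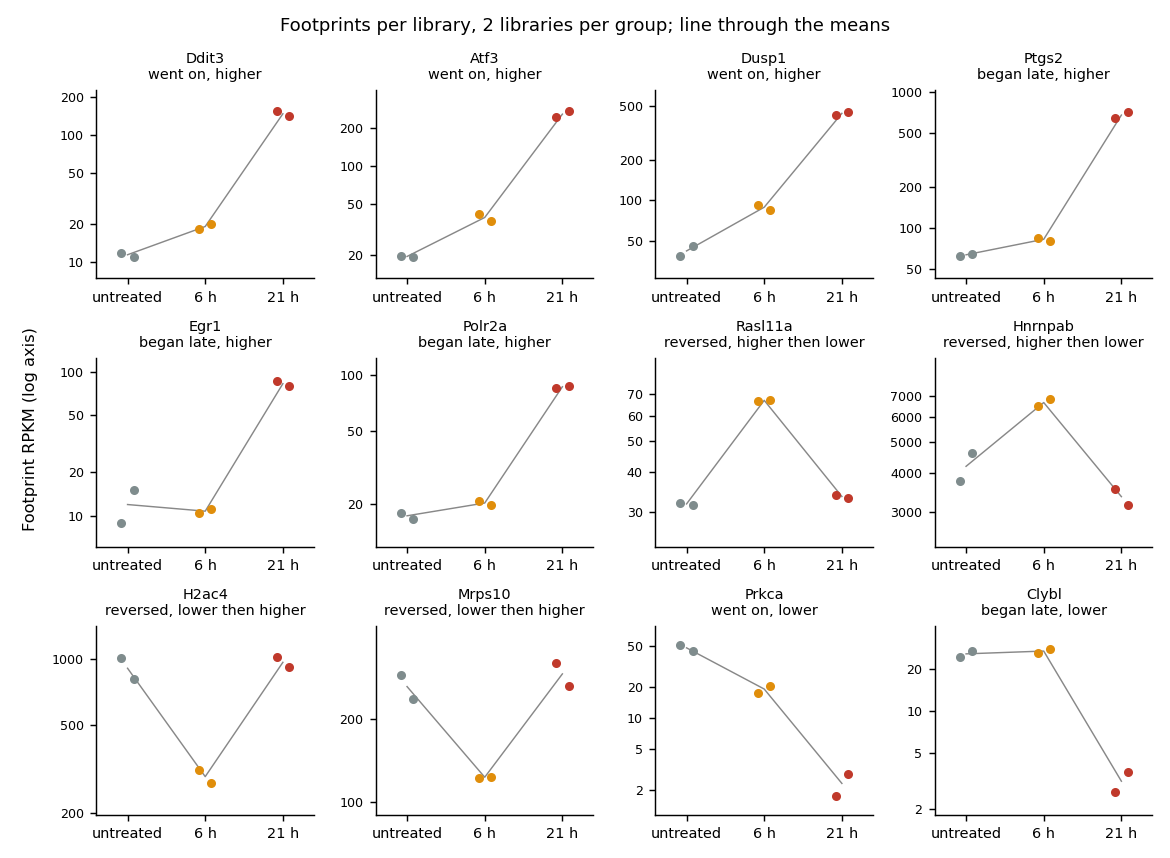
Footprint RPKM (log axis) of 12 named transcripts in each of the 6 footprint libraries, 1 point per library, grouped as untreated, 6 h and 21 h. Ddit3, Atf3 and Dusp1 climb at both intervals, Egr1, Ptgs2 and Polr2a rise and Clybl falls mainly after 6 h, H2ac4 and Mrps10 dip at 6 h and return, Rasl11a and Hnrnpab peak at 6 h, and Prkca falls at both.

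The largest rises between 6 and 21 h also took in inflammatory genes. Ptgs2, the inducible cyclooxygenase COX-2, stood at 62.9 and 64.6 RPKM untreated, 84.6 and 81.1 at 6 h and 640.5 and 704 at 21 h (2.99 ± 0.09, adjusted p = 2.47e-06), with a rise of 2.37 in RNA-seq (limma adjusted p = 1.31e-05). Il6, a cytokine of the acute phase response, stood at 1.82 and 0.339 RPKM untreated, 3.03 and 1.87 at 6 h and 16.3 and 22.6 at 21 h (2.75 ± 0.45, adjusted p = 0.00307). These values rested on 6 and 1 reads untreated, 9 and 4 at 6 h and 38 and 50 at 21 h. In RNA-seq Il6 had 0 reads in each untreated and 6 h library, and 12 and 11 at 21 h. The chemokine Ccl20 rose by 2.64. Of 29 NF-κB targets and cytokines tested, 13 rose and 4 fell, with a median of 0.49, with 9 and 2 without 6 h replicate 1 and 11 and 1 without replicate 2. The falls included the adhesion molecule Vcam1 (-0.77) and the chemokine Ccl7 (-1.0), whose call was lost in some alternatives. Of 41 interferon-stimulated genes tested, 7 rose and 8 fell, 36.6% called beside 30.7% over all transcripts. Without 6 h replicate 1, 3 rose and 6 fell, and without replicate 2, 1 rose and 6 fell. Among them the transcription factor Irf1 rose by 0.70, while Ifit3, an antiviral effector, fell by 0.90.

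The genes on which the study turns gave unlike values. Cgas, the sensor of cytosolic DNA, stood at 6.7 and 8.75 RPKM untreated, 9.95 and 11.7 at 6 h and 22.1 and 24.8 at 21 h (1.06 ± 0.19, adjusted p = 0.00417). Sting1, the adaptor that Cgas activates, stood at 2.71 and 2.65 RPKM untreated, 2.63 and 2.35 at 6 h and 5.5 and 5.55 at 21 h (0.99 ± 0.23, adjusted p = 0.0138), a call that was lost without 6 h replicate 2. Tbk1, the kinase recruited by Sting1, moved by 0.40 (limma adjusted p = 0.113) and the chemokine Cxcl10 by 0.10 (limma adjusted p = 0.516), neither past the threshold. Ccl5 footprints rose from 71.8 and 62.9 RPKM to 149 and 117 (0.95 ± 0.15, adjusted p = 0.00285), beside 97.1 and 122 RPKM untreated, so that the early value was the lowest of the course. Ern1, which encodes the unfolded protein response sensor IRE1α, moved by -0.21 (limma adjusted p = 0.465), and its splicing target Xbp1 by -0.30 (limma adjusted p = 0.11) in footprints and -0.92 (limma adjusted p = 0.00945) in RNA-seq. The paper's lower Ire1α translation was measured at 21 h against PBS, which is another comparison. The 11 tested sensors and transcription factors of that response had a median of -0.22 from untreated to 6 h and -0.47 from untreated to 21 h. Of 29 chaperones and degradation factors of the endoplasmic reticulum, 3 rose, led by the ubiquitin ligase Syvn1 (1.07), and 10 fell, among them the disulfide isomerase Pdia6 (-0.67). Without 6 h replicate 1, 4 members fell, and without replicate 2, 3 fell.

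Polr2a, the catalytic subunit of RNA polymerase II, was called in the later interval and not in the earlier one. It stood at 18 and 16.7 RPKM untreated, 20.9 and 19.8 at 6 h and 85.4 and 88.1 at 21 h (2.05 ± 0.11, adjusted p = 3.2e-05), and RNA-seq gave 1.75 (limma adjusted p = 0.000168). Of 31 polymerase subunits and elongation regulators, 12 rose and 1, the subunit Polr2h (-0.62), fell; without 6 h replicate 1 the rises numbered 7 and without replicate 2 they numbered 6. Hexim1, which holds the elongation kinase P-TEFb inactive, rose by 0.89 after an early rise of 0.84, and so went on. Like Polr2a, Cyp1a1, the cytochrome P450 induced through the aryl hydrocarbon receptor, and Tcim began late, with 2.69 and 1.95. The rise of Bcl2l15, the largest that passed the naming rule at 3.14 ± 0.42, rested on 2 and 5 reads at 6 h and 44 and 26 at 21 h.

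Other stress lists moved in part, and of the BCL2 family 35.7% was called, beside 30.7% over all transcripts. Of 27 p53 targets, 10 rose, led by Gadd45a (2.08) and Btg2 (2.04), both inhibitors of growth, and 2 fell, in a line whose Trp53 carries the R172H allele in every group. Cdkn1a, the inhibitor p21 and a member of the went-on class that was picked after its values were seen, stood at 56 and 54.9 RPKM untreated, 108 and 98.8 at 6 h and 260.5 and 217 at 21 h (1.18 ± 0.11, adjusted p = 0.000231). Of 26 NRF2 targets, 14 rose, among them the ferritin chain Fth1 (0.91), and 4 fell, among them the exporter Abcc1 (-0.83). Rises of NRF2 targets numbered 7 with either 6 h library left out. Of 33 regulators of mRNA decay, 14 rose, including Zfp36, which targets AU-rich mRNAs (1.8), and 3 fell. That count was 8 without 6 h replicate 1 and 5 without replicate 2. Pmaip1, the death-promoting BH3 protein NOXA, rose by 1.84 in a BCL2 family where 4 of 14 rose and 1 fell, 2 and 0 without 6 h replicate 1.

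Replication-dependent histones formed most of the transcripts that fell at 6 h and came back, 16 of 29. Of 50 core histone transcripts tested, 32 rose and 1 fell between 6 and 21 h, and 20 had fallen by 6 h. Their median log2 fold change was -0.63 from untreated to 6 h, 0.66 from 6 to 21 h and 0.03 from untreated to 21 h. The summed footprints were 18458 and 15697 RPKM untreated, 11029 and 10547 at 6 h and 16814 and 17064 at 21 h, so that the 6 h libraries lay below all others and the 21 h libraries within the untreated range. By kind, 9 of 14 H2A, 10 of 14 H2B, 6 of 10 H3 and 7 of 12 H4 transcripts rose. The exception was H2ac10, which fell by 1.44. Rises numbered 22 without 6 h replicate 1 and 21 without replicate 2, and 18 without limma's trend.

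H2ac4 stood at 1004 and 809 RPKM untreated, 312 and 272 at 6 h and 1015 and 915 at 21 h (1.7 ± 0.11, adjusted p = 5.25e-05), and H2ac6 at 229 and 147 RPKM untreated, 48.6 and 61.5 at 6 h and 206 and 184 at 21 h (1.8 ± 0.19, adjusted p = 0.000435). For both, the 6 h libraries lay below the other 4, and the 21 h values differed from untreated by 0.06 and 0.05 on the log2 scale. H2ac8 and H2ac7 reversed likewise, by -1.66 and -1.97 early and 1.67 and 1.48 late. H2ac4 and H2ac7 kept this class in 17 of 19 alternatives and H2ac6 and H2ac8 in 15. Histone genes of a kind are near-identical copies, so short reads can be shared among them and the value of a single copy is uncertain. RNA-seq showed 31 of 50 histone transcripts higher at 21 h than at 6 h and 0 lower by limma, with a median of 0.93. Summed RNA-seq values of the list were 1798 and 1546 RPKM untreated, 1303 and 1183 at 6 h and 2349 and 2514 at 21 h. Unlike the summed footprints, both 21 h values lay above the untreated ones. From untreated to 6 h, RNA-seq gave -0.50 for H2ac4 and 0.19 for H2ac6, neither called by limma. Slbp, the protein that binds the stem-loop of histone mRNAs and was picked after its values were seen, did not dip: it stood at 194 and 198 RPKM untreated, 267 and 261 at 6 h and 457 and 458 at 21 h.

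The promoters of a pair of these histone genes are shown because CCAAT and TATA letters were frequent among histone promoters, with capitals for CCAAT boxes on either strand and for a TATA box (TATAAA), again from RefSeq GRCm38.p6 over the 250 bases before the start.
H2ac4 (chr13:23750838-23751087, plus strand): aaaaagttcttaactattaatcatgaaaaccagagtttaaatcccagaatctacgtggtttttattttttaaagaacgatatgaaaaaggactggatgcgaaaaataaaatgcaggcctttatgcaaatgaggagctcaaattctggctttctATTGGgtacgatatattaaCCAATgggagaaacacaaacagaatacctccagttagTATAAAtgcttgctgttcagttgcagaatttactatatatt
H2ac6 (chr13:23683960-23684209, minus strand): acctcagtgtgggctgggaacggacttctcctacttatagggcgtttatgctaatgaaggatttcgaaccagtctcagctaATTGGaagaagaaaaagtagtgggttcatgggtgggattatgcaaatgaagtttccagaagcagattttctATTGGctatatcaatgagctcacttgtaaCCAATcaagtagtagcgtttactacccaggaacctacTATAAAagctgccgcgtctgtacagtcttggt
H2ac4 has CCAAT letters beginning 97 and 78 bases before the start and TATAAA at 41, and H2ac6 has CCAAT letters at 169, 98 and 69 and TATAAA at 32. Over the longer windows, on either strand, CCAAT was found in 37 of 45 core histone genes (82.2%) against 43.7% of tested genes, and TATAAA in 28 of 45 (62.2%) against 8.86%. GAANNTTC was found in 9 of 45 (20%) against 6.71%.

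**Figure D2:**
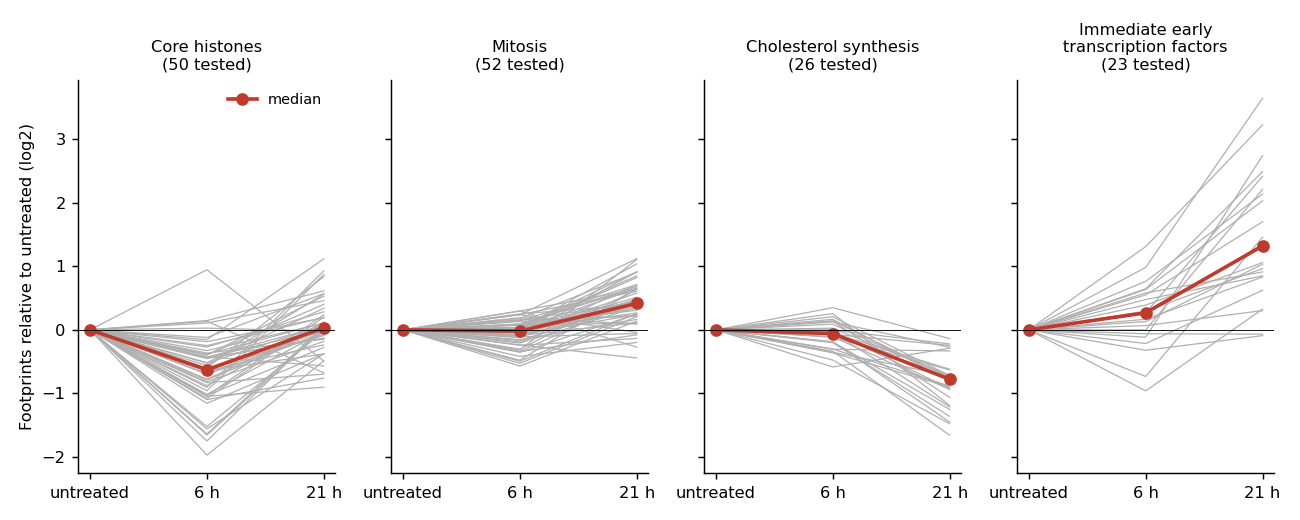
Footprint level of each member of 4 gene lists relative to untreated cells (log2) at untreated, 6 h and 21 h, with a red line for the list's median. Histone transcripts dip at 6 h and return, mitosis and immediate early genes rise mainly after 6 h, and cholesterol synthesis genes fall mainly after 6 h.

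The 13 other transcripts that fell and came back were mixed. Cox17, a copper chaperone for cytochrome oxidase, stood at 12.2 and 10.2 RPKM untreated, 4.51 and 4.7 at 6 h and 31.6 and 45.4 at 21 h (2.89 ± 0.20, adjusted p = 6.4e-05), ending above its untreated level. These values rested on 12 and 9 reads untreated, 4 and 3 at 6 h and 22 and 30 at 21 h. Cox17 kept this class in 11 of 19 alternatives. Its RNA-seq value moved by 0.39 up to 6 h and by 0.21 after it, neither called by limma. Mrps10, of the mitochondrial ribosome, stood at 289 and 237 RPKM untreated, 123 and 124 at 6 h and 319 and 265 at 21 h (1.21 ± 0.12, adjusted p = 0.000289), and Eif2s1, the eIF2α subunit whose phosphorylation defines the ISR, rose by 0.78. At 21 h, 24 of the 29 were not called against untreated cells. In RNA-seq, 16 of the 28 tested rose as well.

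The 33 transcripts that rose early and then fell had a median coding sequence of 567 bases against 1350 over all tested, and single members passed 1350. Rasl11a, a small GTPase, stood at 32 and 31.6 RPKM untreated, 66.6 and 67.3 at 6 h and 34 and 33.1 at 21 h (-1.01 ± 0.10, adjusted p = 0.000377). Both 6 h libraries lay above the other 4. Hras, the RAS family oncogene, stood at 93.5 and 113 RPKM untreated, 214 and 166 at 6 h and 93.3 and 98.5 at 21 h (-0.99 ± 0.14, adjusted p = 0.00173). Hnrnpab, an RNA-binding protein, and Srm, the spermidine synthase, fell by 1.01 and 0.90 after rising by 0.66 and 0.54. The ubiquitin ligase Rnf126 fell by 0.83. Ccne1, the cyclin of S phase entry, picked after its values were seen, went from 59.2 and 49.3 RPKM untreated to 113 and 101 at 6 h and 61.6 and 76.7 at 21 h. At 21 h, 28 of the 33 were not called against untreated cells.

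Among the 69 that held, Alkbh4, a dioxygenase, stood at 11.5 and 10 RPKM untreated, 27.2 and 23.4 at 6 h and 22.6 and 27.4 at 21 h, a change of 1.18 by 6 h and -0.04 after it. Fst, which binds activin, and Dph2, which makes diphthamide on elongation factor 2, had early changes of 1.15 and 0.99 and late ones of 0.40 and 0.26. Mgat5, a glycosyltransferase, and Synj2bp, a mitochondrial outer membrane protein, were the lowest at 6 h, with -1.37 and -1.31 early and -0.81 and 0.28 late. No call in the later interval does not show that a level stayed the same.

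Of 52 mitosis genes, 34 rose and 1, the phosphatase Cdc25b (-0.57, lost in some alternatives), fell, with a median of 0.56. At 6 h, 0 of the 52 had been called by limma. Mki67, the proliferation antigen Ki-67, stood at 8.29 and 7.23 RPKM untreated, 6.35 and 6.03 at 6 h and 16.5 and 18.9 at 21 h (1.42 ± 0.17, adjusted p = 0.000838), and Anln, a scaffold of the contractile ring, rose by 1.13. Of 54 genes of DNA replication and nucleotide synthesis, 31 rose and 7 fell, with a median of 0.45. Chaf1a, the chromatin assembly factor that loads new histones behind the fork, stood at 24 and 27 RPKM untreated, 27.8 and 26 at 6 h and 101 and 97.9 at 21 h (1.84 ± 0.12, adjusted p = 4.08e-05). Cdc45, of the replicative helicase, rose by 1.3, whereas its partner Gins1 fell by 0.90. Rises numbered 20 and 21 for mitosis and replication without 6 h replicate 1, and 25 and 19 without replicate 2. In RNA-seq 28 of 52 mitosis genes and 22 of 54 replication genes rose, 19 to 26 and 9 to 19 with 1 library left out. Letters of an E2F site (TTTGGCGC, either strand) were found in 8 of 45 replication genes (17.8%) against 1.2% of tested genes. Of 36 genes of Fanconi, homologous recombination and translesion repair, 4 rose, among them Brca1 (1.07), and 3 fell. The share called was 19.4%, below the 30.7% over all transcripts. Without 6 h replicate 1 the rises and falls were 3 and 0, and without replicate 2 they were 2 and 1.

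Mitochondrially encoded genes, translated inside the organelle on its own ribosomes, rose in footprints relative to the other transcripts, and in RNA-seq 0 of them rose. Whether their absolute footprints rose was not tested. Of 10 tested, 9 rose and 0 fell, with a median of 0.81, and without 6 h replicate 1 the rises numbered 6. Their summed footprints were 19719 and 20908 RPKM at 6 h and 32695 and 33364 at 21 h. mt-Nd4l, a subunit of complex I, stood at 352 and 372 RPKM at 6 h and 762 and 875 at 21 h, beside 477 and 389.7 untreated (1.15 ± 0.11, adjusted p = 0.000255), and mt-Co2, of cytochrome oxidase, at 2512 and 2705 RPKM at 6 h and 5781 and 5260.3 at 21 h, beside 3736 and 2724 untreated (1.06 ± 0.13, adjusted p = 0.000837). In RNA-seq 7 of the 10 fell, with a median of -0.31. The RNA-seq count depended on the scaling: 1 fell with RPKM as deposited and 4 with quantile normalization. It was also 1 without 6 h replicate 2 and 0 without limma's trend. Background calls in RNA-seq from 6 to 21 h were 7.53% higher and 8.2% lower over 9459 transcripts.

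Of 78 cytosolic ribosomal proteins, 13 rose and 10 fell in footprints, near the background, with a median of 0.09. Without 6 h replicate 1, 7 rose and 7 fell, and without replicate 2, 7 rose and 5 fell. Rps26 and Rps29 of the small subunit rose by 0.78 and 0.69, and Rpl22l1, a paralog of Rpl22, fell by 1.6. In RNA-seq, 48 of the 80 tested there fell and 0 rose, with a median of -0.29. With RPKM as deposited 15 fell, with quantile normalization 10 fell and 1 rose, without the trend 2 fell, and with 1 library left out 20 to 43 fell. RNA-seq scaling moved the median of all transcripts by 0.15 on the log2 scale, from 0.01 to 0.15 as deposited, and turned 712 higher and 776 lower calls into 1234 and 515. Ribosomal proteins have many processed copies in the genome, which can share reads with them.

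**Figure D3:**
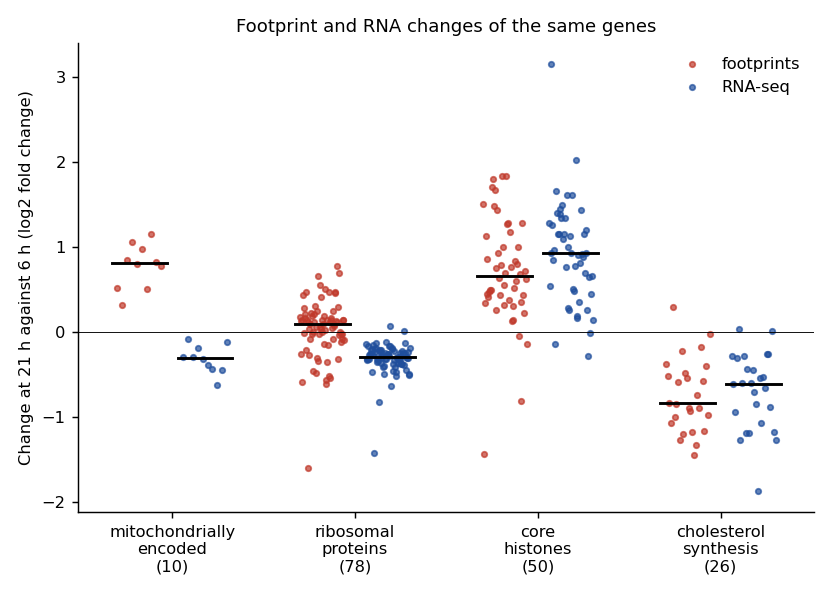
Log2 fold change from 6 to 21 h in footprints and in RNA-seq for each member of 4 lists, with black bars for medians. Mitochondrially encoded genes lie above 0 in footprints (median 0.81) and below it in RNA-seq (median -0.31), ribosomal proteins lie near 0 in footprints and below it in RNA-seq, and histone and cholesterol genes move the same way in both assays.

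Across the 9312 transcripts tested in both assays, the log2 fold changes from 6 to 21 h had Pearson's r of 0.70, given as a description since transcripts are not independent replicates. Of 3006 transcripts called in footprints and tested in RNA-seq, 2648 (88.1%) moved in the same direction there, and 1006 were called in both in that direction. Another 30 were called in opposite directions, 26 higher in footprints and lower in RNA-seq, of which 9 encode ribosomal proteins and 7 are mitochondrially encoded. Of the 4 with the opposite pattern, 3 were picked after their values were seen: the splicing factors Rbm39 (-0.62 in footprints, 0.62 in RNA-seq) and Rsrc2 (-0.44 and 1.36), and the calcium-binding S100g (-1.25 and 2.43). The counts of calls in opposite directions rest on the RNA-seq scaling and libraries given above.

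The 45 transcripts that fell early and went on falling had a median coding sequence of 2187 bases against 1350 over all tested, with members both above and below the latter, and 33 of the 44 tested in RNA-seq fell there too. Prkca, protein kinase C alpha, stood at 50.3 and 44.8 RPKM untreated, 17.4 and 20.4 at 6 h and 1.75 and 2.84 at 21 h (-2.84 ± 0.21, adjusted p = 8.85e-05). Fto, the m6A demethylase, stood at 47.3 and 49.4 RPKM untreated, 26.5 and 25.6 at 6 h and 3.06 and 3.61 at 21 h (-2.81 ± 0.15, adjusted p = 2.44e-05). Gphn, the scaffold gephyrin, the receptor phosphatase Ptprk and the kinase Stk39 fell by 2.66, 2.4 and 2.36. In each of these 5 the groups were ordered untreated, 6 h, 21 h with no overlap. Prkca kept its class in 12 of 19 alternatives, and its fall from 6 to 21 h was called in all 16.

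The largest falls from 6 to 21 h left few reads. Gmds, which makes GDP-fucose, had 180 reads in the 6 h libraries together and 6 at 21 h, a fall of 26.7-fold (95% counting interval 12 to 73.7). Msra, which repairs oxidised methionine, went from 111 reads to 4, 24.7-fold (95% counting interval 9.38 to 92.2). Immp2l, an inner mitochondrial membrane peptidase, went from 59 to 3, 17.5-fold (95% counting interval 5.7 to 87.3). These intervals cover counting error only, and reads without molecular identifiers are not independent molecules. Lpp, a focal adhesion protein, stood at 18.4 and 15.5 RPKM at 6 h and 0.885 and 2.02 at 21 h, beside 22 and 21.4 untreated (-3.23 ± 0.27, adjusted p = 0.000171), and Snd1, a nuclease of the RNA silencing complex, at 116 and 117 RPKM at 6 h and 11.2 and 13.7 at 21 h, beside 157 and 169 untreated (-3.21 ± 0.12, adjusted p = 8.4e-06). Fam172a, Tbc1d5, Mpp7, Slc39a11 and Trappc9 completed the 10 largest, with falls of 3.18 to 3.57. Msra, Immp2l, Slc39a11, Clybl and Chchd6 were flat at 6 h and so began late. Many of the genes named here, among them Lpp, Immp2l, Fto, Prkca and Gphn, are known for very long introns, and gene span was not analysed here.

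Footprint calls also differed by the length of the coding sequence. With transcripts cut into 4 equal bins by that length, in the shortest bin (median 567 bases), 541 rose and 364 fell, 20.8% and 14.0%, and in the longest bin (median 3072 bases) 261 rose and 455 fell, 10.1% and 17.5%. The medians of the log2 fold change were 0.07 and -0.08.

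Lists of metabolic and matrix genes held mostly falls. Of 26 genes of cholesterol synthesis and SREBP2 targets, 20 fell and 0 rose, with a median of -0.84 beside -0.06 by 6 h. Mvk, mevalonate kinase, stood at 34 and 36.5 RPKM untreated, 41.5 and 43.7 at 6 h and 13.6 and 17.8 at 21 h (-1.45 ± 0.15, adjusted p = 0.000425). Nsdhl, a sterol dehydrogenase, fell by 1.32. The count stayed between 17 and 21 over the alternatives. In RNA-seq 16 of 26 fell, 9 to 15 with 1 library left out and 9 without the trend. Of 26 integrins, laminins and collagens, 15 fell and 0 rose, with a median of -0.62 beside -0.28 by 6 h. The median ran from -0.68 to -0.17 over the alternatives, and 50 of the 76 listed members were not tested. In RNA-seq 4 of 23 fell and 0 rose, with a median of -0.28. Col4a2, of basement membrane collagen, stood at 16.3 and 20.7 RPKM untreated, 14.6 and 13.5 at 6 h and 3.71 and 3.91 at 21 h (-1.77 ± 0.18, adjusted p = 0.000402), and Col18a1 fell by 1.6. Of 20 glycolysis transcripts, 11 fell, among them Gapdh (-0.91) and Hk1 (-0.75), and 1 rose. Without 6 h replicate 1, 7 fell and 0 rose.

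Of 25 genes of the RAS-ERK cascade and protein kinase C, 8 fell, 1 rose and 16 were not called, and 5 fell with either 6 h library left out. Of 24 growth factor ligands and receptors, 4 rose and 6 fell, 41.7% called beside 30.7% over all transcripts. Falls numbered 2 without 6 h replicate 1. The EGFR ligands Ereg and Areg rose by 1.91 and 1.3, and the receptor kinase Axl fell by 0.81. Tubulins rose in 8 of 12, in 5 without 6 h replicate 2, with Tubb2a at 1.0. Zinc finger proteins of the Zfp series rose in 58 of 261 and fell in 11, which became 32 and 3 without 6 h replicate 1 and 31 and 3 without replicate 2. Of 41 proteasome genes, 17 rose by at most 0.52 and 3 fell, and rises numbered 9 without 6 h replicate 1 and 6 without replicate 2. Of 71 ribosome biogenesis genes, 23 rose and 5 fell, with 8 rises without 6 h replicate 1 and 7 without replicate 2. Of 23 heat shock genes, 9 rose, led by Zfand2a (1.34) and the small chaperone Hspb1 (0.98), and 2 fell, Fkbp4 (-0.64) and the constitutive chaperone Hspa8 (-0.54). Of 23 aminoacyl-tRNA synthetases, which charge tRNAs, 9 rose, among them Aars (0.94), and 3 fell, among them Dars (-0.74). Of 24 checkpoint genes, 6 rose, led by the clamp subunit Rad9a (1.27), and 0 fell by limma, with 3 rises with either 6 h library left out. Mitochondrial ribosomal proteins (17 and 11 of 75), translation factors (13 and 5 of 68), nuclear-encoded respiratory chain genes (12 and 6 of 78), SR proteins and hnRNPs (7 and 9 of 37), COPI and COPII coats (4 and 5 of 34), YAP and TEAD with targets (5 and 3 of 21), autophagy core genes (6 and 4 of 29), nucleotide excision repair (3 and 1 of 23), sensors of the unfolded protein response (2 and 1 of 11) and the cGAS-STING pathway (3 and 2 of 17) were called in both directions. With either 6 h library left out these lists had fewer calls, in the order replicate 1 and replicate 2: rises numbered 8 and 4 for mitochondrial ribosomal proteins, 8 and 7 for translation factors, 6 and 4 for the respiratory chain, 2 and 3 for SR proteins and hnRNPs, 2 and 2 for coats, 3 and 3 for YAP and TEAD, 4 and 4 for autophagy, 2 and 2 for excision repair, 1 and 1 for sensors and 2 and 1 for cGAS-STING. Falls in the same order numbered 5 and 6, 2 and 2, 4 and 3, 4 and 3, 2 and 2, 2 and 2, 3 and 3, 1 and 1, 0 and 0, and 1 and 1. With all libraries, the shares called in these lists were 37.3%, 26.5%, 23.1%, 43.2%, 26.5%, 38.1%, 34.5%, 17.4%, 27.3% and 29.4% in that order. The share over all transcripts was 30.7%. Beside it stood 26.4% for the Zfp series, 25% for checkpoint genes, 36% for the RAS-ERK cascade with protein kinase C and 39.4% for ribosome biogenesis. Among single members, Sqstm1, the autophagy receptor p62, rose by 0.97, while Atg10 had 9 and 8 reads at 6 h and 0 in either 21 h library, at least 2.56-fold lower by a floor of 3 reads per library.

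**Figure D4:**
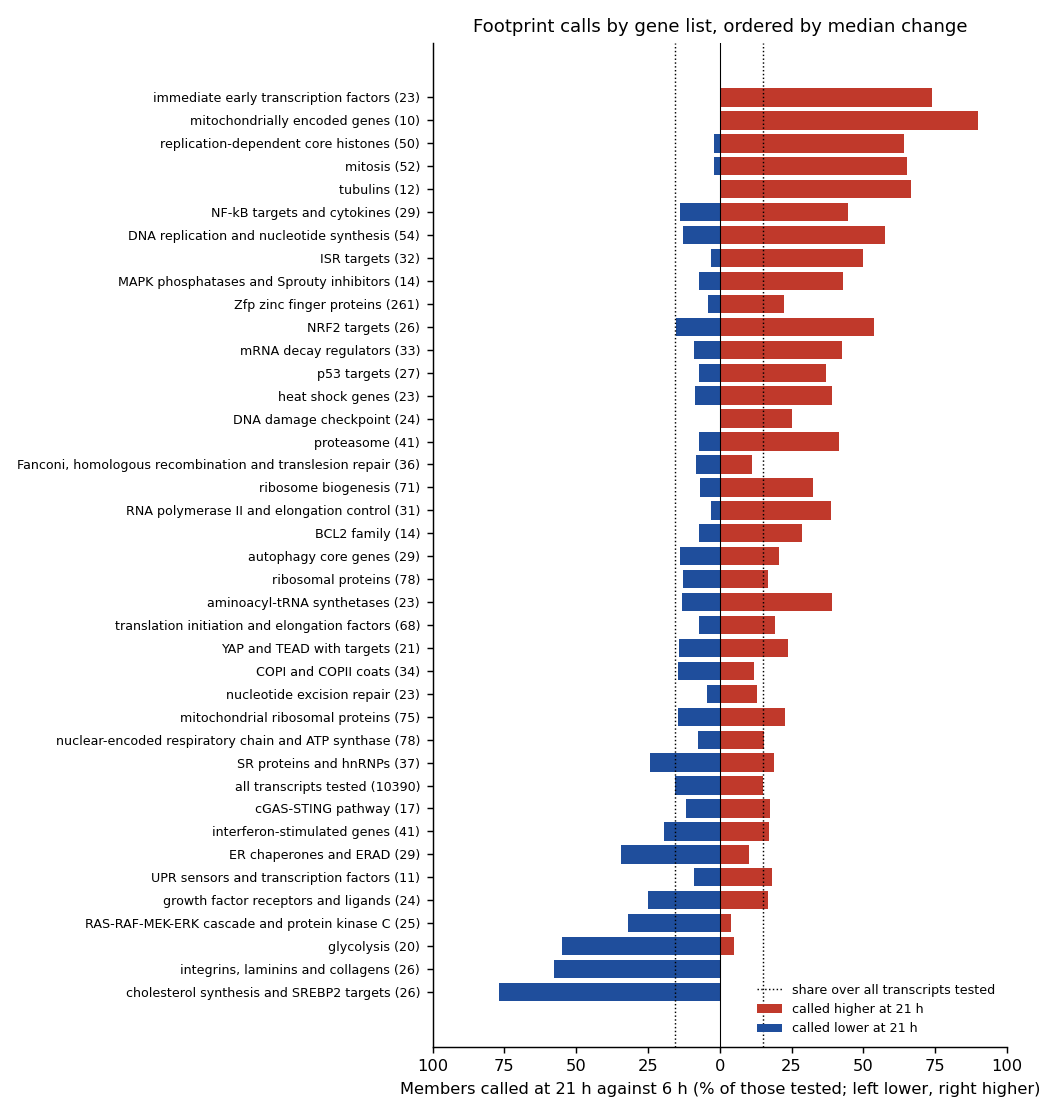
Number of members that rose and fell in footprints from 6 to 21 h for each gene list, as a percentage of the members tested. Cholesterol, matrix and glycolysis lists hold mostly falls, and immediate early, mitosis, histone and mitochondrially encoded lists mostly rises, against 15% and 15.7% over all transcripts.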

How the data were processed

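KPC cells were lysed with cycloheximide, lysates were digested with RNase I and fragments of 25 to 35 nucleotides were made into libraries, and RNA-seq libraries were made in parallel. The submitters' processing notes name cutadapt, STAR and GRCm39, and their versions and settings are not given in the sources used here. The authors deposited 1 table of RPKM per library, with reads per kilobase of coding sequence for footprints and of transcript for RNA-seq and scaled to library depth. Multiplied by length, 100% of the deposited RPKM values came out as whole reads within a tolerance of 0.01, and these reads give the depths in the report (3375480 to 5204127 for footprints).

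RPKM was then scaled by median of ratios, and transcripts averaging 1 RPKM or more were kept. Their log2 values, after 0.5 was added, went into limma 3.58.1 (R 4.3.3, eBayes with trend) over the 3 groups of an assay, without a replicate block. Contrasts were two-sided with Benjamini-Hochberg adjustment at 0.05. With 2 libraries against 2, an exact permutation test of a single value cannot go below p = 0.333, so none is given. The fit was tested on simulated data. Alternatives were other pseudocounts, filters, scalings and thresholds, no trend, a replicate block, limma-voom on recovered reads, and leaving out each library.

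A transcript called at 6 h against untreated went on, reversed or held according to its call at 21 h against 6 h, and one called only in the later interval began late. Named genes were the 10 largest rises and falls with at least 20 reads in the higher group and no overlap between groups, the 5 largest per class and direction (for began late, within 0.25 of untreated at 6 h), up to 2 per direction in each of 39 gene lists, and 8 genes of the study, and others are said to be picked after their values were seen. The comparison, the classes and the lists were chosen with earlier results of these data known. Promoters came from a RefSeq table (GRCm38.p6), which held 8395 of the 10389 tested symbols. Groups with under 80% of members matched were left out of motif shares. Chromosomal positions on GRCm39 were not used here. Some items are not reported here.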

Additional observations from a re-analysis of the deposited data

How the results depend on the processing

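Footprint calls from 6 to 21 h (1554 higher, 1634 lower) stayed within 1.5 times under other pseudocounts, filters, scalings, no trend, limma-voom and an adjusted p under 0.1. They were 1490 and 1466 with only the 21 h and 6 h libraries in the fit. They were 278 and 547 with a log2 fold change beyond 1 required, and 757 to 1495 and 848 to 1490 with 1 library left out, the lowest without 6 h replicate 2. Late calls were 264 higher and 537 lower beyond 1, and 757 to 1486 and 848 to 1487 with 1 library left out.

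RNA-seq calls (712 higher, 776 lower) were 425 and 493 without the filter, 1234 and 515 with RPKM as deposited, 360 and 430 without the trend, 250 and 318 beyond 1, and 257 to 591 and 409 to 619 with 1 library left out, and an adjusted p under 0.1 gave 1092 higher.

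Class counts are given in the order went on higher and lower, reversed to lower and to higher, held higher and lower. The values reported were 36, 45, 33, 29, 40 and 29. They were 5, 0, 3, 6, 1 and 2 without the filter, where 17 early calls were left, and 0 in each class without the trend, where limma gave 0 early calls and 2001 at an unadjusted p under 0.05. limma-voom gave 107, 398, 125, 113, 222 and 311. An adjusted p under 0.1 gave 101, 168, 101, 80, 130 and 100, and an early change at an unadjusted p under 0.01 gave 105, 183, 102, 88, 233 and 191. A log2 fold change beyond 1 left 3, 9, 1, 11, 8 and 16. A minimum of 5 RPKM gave 55, 72, 54, 72 and 48, the class from lower to higher staying within 1.5 times. With 1 library left out the counts ran from 0 to 50, 0 to 98, 0 to 50, 0 to 35, 0 to 105 and 0 to 73, each reaching 0 without 6 h replicate 2. Went on higher, went on lower, reversed to lower and held lower were also 0 without 6 h replicate 1, and went on lower was 0 without either untreated library.

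With the replicate number as a block, the classes held 7, 1, 4, 13, 6 and 6 transcripts, and 1406 rose and 1529 fell from 6 to 21 h. Same-numbered libraries did not deviate together (r from -0.014 to 0.007 for footprints), so the numbers were not taken to pair the samples. Of 178 named genes, 164 were called and 131 of these under each alternative run for them, which was 16 for 167 genes and 15 for 11. With 1 library left out, 4 changes that were not called took either sign: Alkbh4 ran from -0.18 to 0.10, Cxcl10 from -0.032 to 0.23, Klhl21 from -0.01 to 0.19 and Synj2bp from -0.037 to 0.59, with the sign turning without 21 h replicate 1 for Alkbh4, Klhl21 and Synj2bp, without 6 h replicate 1 for Alkbh4 (0.07) and without 21 h replicate 2 for Cxcl10. The cause of these changes was not tested, beyond the fewer libraries or transcripts that each alternative has. Low depth limits genes under about 20 reads per library.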
